A study of Bos taurus with 90 samples.

Results

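The 200 genes described here varied least over the sampled cell compartments of the bovine antral follicle. The compartments sampled were the granulosa of the wall (mural granulosa cells, MGCs), the cumulus (cumulus cells, CCs) and the oocyte. The genes were chosen on measured values. Counts were scaled to CPM, a gene's count relative to the total of its library on a scale common to all libraries, in 80 libraries. Genes with a mean CPM of 10 or more in each of the 3 cell types were eligible, and the 200 with the lowest standard deviation (SD) of log2(CPM + 1) over those 80 libraries became the members. They made up 0.733% of the 27270 deposited genes and 3.48% of the 5749 eligible ones. The values of the 80 libraries therefore describe the choice and test nothing about it. The table gives Ensembl identifiers and no symbols, so members are given by identifier, their functions are not described, and the labelled cell types could not be checked against marker genes.

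The study dissected 30 untreated antral follicles of Bos taurus and sequenced the MGCs, the CCs and the single oocyte of each follicle, giving 90 libraries. There were 10 small follicles of 3.1 to 3.8 mm in diameter, 10 medium follicles of 6.2 to 7.1 mm and 10 large follicles of 9.6 to 11.6 mm. MGC libraries were standard bulk libraries from extracted RNA, whereas CCs and oocytes were lysed directly and their cDNA was amplified by SMART-seq2. A difference between MGCs and the other cell types therefore cannot be told apart from a difference in library preparation. Single oocytes also received more PCR cycles than the pools of CCs. A difference between oocytes and CCs thus cannot be told apart from a difference in amplification. The labels do not say which follicles came from the same animal, and p-values over follicles measure only the spread between these samples.

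The choice left out 10 libraries. Of these, 9 came from 3 follicles that the study removed whole after a failure of library quality control in 1 of their libraries. Their labels begin with G for MGCs, C for CCs or O for oocytes, followed by S for small or M for medium and the number of the follicle. The MGC libraries of the 3 were GS70702, GM71804 and GM71001, the CC libraries CS70702, CM71804 and CM71001, and the oocyte libraries OS70702, OM71804 and OM71001. The failures were a low mapping rate in CS70702 and OM71001 and a high mitochondrial share in OM71804. The remaining library left out was CS70701, in which only 1066 genes had a count. The other 27 follicles, among them some that the study later set aside as entering atresia, gave 27 MGC, 26 CC and 27 oocyte libraries, with total counts from 8442938 to 53173320. Because the 9 libraries took no part in the choice, they are the place where the steadiness of the members could be tested.

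In an antral follicle, MGCs line the wall and make steroid hormones, CCs surround the oocyte and supply it with metabolites through gap junctions, and the oocyte accumulates the maternal RNA that the early embryo draws on. Genes with an even level across cells are commonly called housekeeping or reference genes, since many serve functions that every cell needs. They are used to bring measurements from different cells onto one scale, for example in quantitative PCR. CPM measures a gene's share of a library's RNA, so an even CPM is an even share and not an even number of molecules per cell. Oocytes hold far more RNA than a granulosa cell, and the number of transcripts per cell was not measured.

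Among the members, the SD of log2(CPM + 1) ran from 0.32 to 0.53 (median 0.48). The median over all eligible genes was 1.03 and the highest was 4.69. The limit did not fall in a gap, since the last member, ENSBTAG00000001485, had an SD of 0.527606 and the first gene outside, ENSBTAG00000039442, an SD of 0.527821. These neighbours were alike also in range. The last member's CPM lay between 36.9 and 216 over the 80 libraries, and that of the first gene outside between 47.9 and 343.

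The members covered a wide range of levels. Their mean CPM ran from 12.7 to 868, with a median of 90.9 against 62.6 over the eligible genes. With the eligible genes divided into 4 equal bins by mean CPM, the share of members was larger in each higher bin, from 1.95% (28 genes) to 2.78% (40), 3.76% (54) and 5.43% (78). The spread of the eligible genes ran the other way, with a median SD of 0.95 in the lowest bin and 1.21 in the highest. Eligibility set a floor on the mean CPM in every cell type, and mean CPM in the lowest bin reached only 36.6. The floor therefore limits how far the cell types can differ in that bin. How much of the rise in spread follows from the floor was not tested. Counting error alone would give a member a median SD of 0.027 on the log2 scale, which is small beside the observed 0.48. That value takes each count as independent and does not cover the sampling and amplification of RNA before sequencing.

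**Figure D1:**
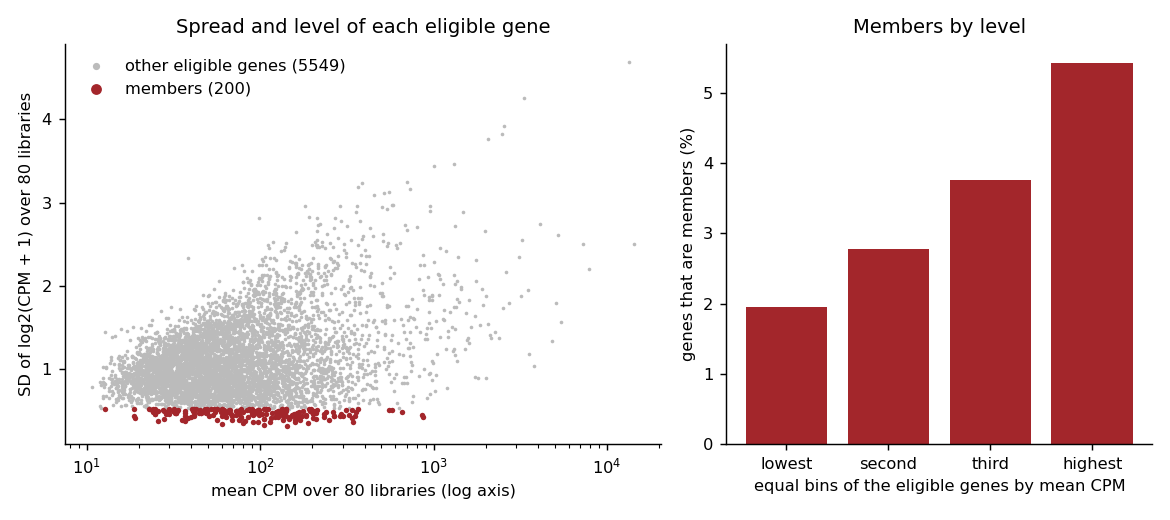
Left, the SD of log2(CPM + 1) of each eligible gene against its mean CPM (log axis), both over 80 libraries, with the 200 members in red along the lower edge between mean CPM of 12.7 and 868. Right, the percentage of genes that are members in each of 4 equal bins of the eligible genes by mean CPM, from 1.95% to 5.43%.

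Every member had a count in all 80 libraries, which held for 86.7% of the eligible genes. The lowest CPM of any member in any of these libraries was 1.30 and the highest was 1813. Together the members took up between 1.75% and 2.91% of a library's counts (median 2.49%). The median share was 2.47% in MGC libraries, 2.59% in CC libraries and 2.49% in oocyte libraries, and the ranges of the cell types overlapped. The ratio of a member's highest to its lowest library nevertheless had a median of 5.25, with a range from 2.78 to 24.7, so that even these genes were not flat. Over the eligible genes the median of that ratio was 30.7.

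The gene with the lowest SD was ENSBTAG00000016007, at 0.32. Its CPM in the 27 MGC libraries ran from 72.7 through a median of 125 to 236. In the 26 CC libraries it ran from 89.4 through 153 to 223, and in the 27 oocytes from 81.9 through 150 to 184. The 3 cell types overlapped over most of their ranges, and the mean CPM was 134 ± 35.0 (SD, n = 27) for MGCs, 148 ± 33.8 (SD, n = 26) for CCs and 147 ± 22.5 (SD, n = 27) for oocytes.

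ENSBTAG00000005681 followed with an SD of 0.33. Its CPM had a median of 117 in MGCs (77.5 to 178), 96.2 in CCs (51.7 to 138) and 102 in oocytes (73.0 to 145). In ENSBTAG00000009278, with an SD of 0.34, the median was 63.0 in MGCs (39.3 to 104), 49.3 in CCs (28.9 to 81.3) and 68.3 in oocytes (44.2 to 109). In both genes the CCs had the lowest median, and the ranges of all 3 cell types overlapped.

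**Figure D2:**
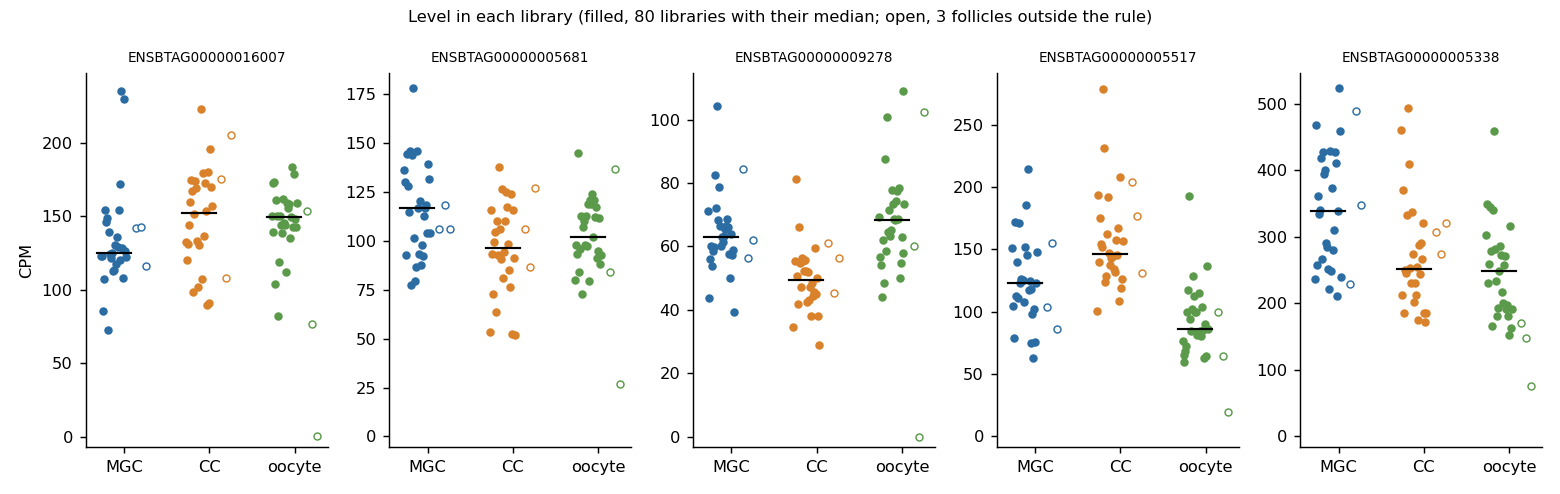
CPM of 5 members in each library by cell type, with filled circles for the 80 libraries that chose the members, a line at their median, and open circles for the 9 libraries of the 3 follicles outside the choice. The left 3 genes had the lowest SD, and ENSBTAG00000016007 and ENSBTAG00000009278 each have an open oocyte circle at or near 0, while ENSBTAG00000005517 and ENSBTAG00000005338 were lower in the open oocyte circles.

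The means of the 3 cell types were close together for most members. The ratio of the highest to the lowest cell type mean had a median of 1.42 and did not pass 2.02, against a median of 3.18 over the eligible genes. It stayed within 1.5 for 121 members (60.5%, against 8.84% of eligible genes) and within 2 for 199 (99.5%, against 23.8%). The cell type with the highest mean CPM was the oocyte in 78 members (39.0%, against 46.0% of eligible genes), the CCs in 69 (34.5%, against 24.8%) and the MGCs in 53 (26.5%, against 29.2%). This order depended on the scaling, and under the TMM scaling described below it was the oocyte in 8 members, the CCs in 143 and the MGCs in 49.

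**Figure D3:**
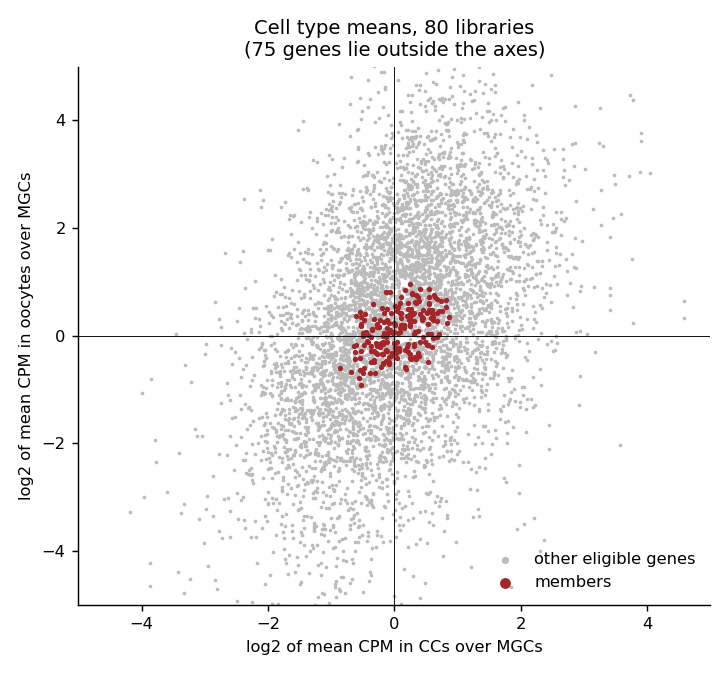
The log2 ratio of mean CPM in oocytes over MGCs against that in CCs over MGCs for the eligible genes (grey) and the 200 members (red), over 80 libraries, with 75 eligible genes outside the axes. The members lie around the origin, and their highest and lowest cell type means differ by a ratio of 2.02 at most.

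Variation between libraries of the same stage and cell type made up most of what variation the members had. Each follicle gave a single library per cell type. The part between follicles therefore cannot be told apart from variation between library preparations. When each gene's sum of squares of log2(CPM + 1) was divided into parts, cell types accounted for a median of 21.2% in the members, stages within a cell type for 9.96% and follicles within a stage and cell type for 66.4%. Over the eligible genes the medians were 54.7%, 5.24% and 38.7%. The parts are shares of each gene's own total, so a smaller part between cell types raises the other shares. The shares were not corrected for what noise alone gives to each part. The larger share between stages in the members therefore does not show larger differences between stages. The largest part lay between follicles in 172 members and between cell types in the other 28. In 19 members the cell types still accounted for more than 50% of the sum of squares.

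**Figure D4:**
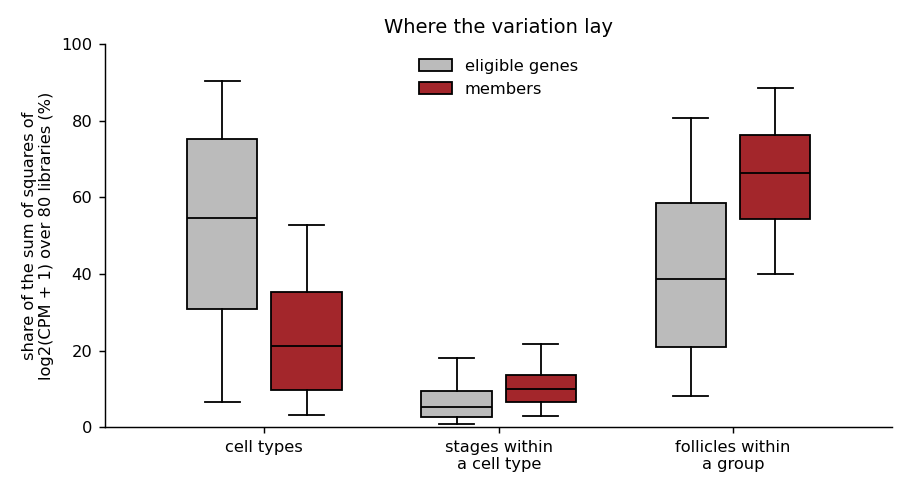
Shares of each gene's sum of squares of log2(CPM + 1) over 80 libraries that lay between cell types, between stages within a cell type, and between follicles within a group, for the 5749 eligible genes (grey) and the 200 members (red); boxes span the quartiles with a line at the median and whiskers reach the 5th and 95th percentiles. The red median is 66.4% between follicles and 21.2% between cell types, and the part between follicles includes variation between library preparations.

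Low spread over all sampled cell types together was not the same as low spread within a cell type. Within MGCs the members had a median SD of 0.34 (eligible genes 0.44), within CCs 0.44 (0.74) and within oocytes 0.38 (0.54). Members were 3.48% of the eligible genes. Among the 200 eligible genes with the lowest SD inside one cell type there were 11 members for MGCs, 48 for CCs and 25 for oocytes. The eligible genes that were among those 200 in every cell type numbered 3, and 1 of them, ENSBTAG00000020192, was a member, with a mean CPM of 122 for MGCs, 83.9 for CCs and 165 for oocytes. The others, ENSBTAG00000004654 and ENSBTAG00000047169, were even within each cell type and unequal between them, with 79.4, 129 and 685 CPM in MGCs, CCs and oocytes for ENSBTAG00000004654 and 45.5, 74.5 and 222 for ENSBTAG00000047169.

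Differences between cell types depended on how libraries were scaled. Under CPM the members' median log2 difference was 0.02 for CCs minus MGCs, 0.06 for oocytes minus MGCs and 0.05 for oocytes minus CCs. TMM scaling, which sets libraries level on the bulk of their genes, had median factors of 0.95 for MGCs, 0.86 for CCs and 1.26 for oocytes, and under it the same differences were 0.23, -0.35 and -0.57. The share of members with a higher mean in oocytes than in CCs went from 56.0% under CPM to 8.00% under TMM. The eligible genes shifted with them, their median for oocytes minus CCs going from 0.32 to -0.28, so that the members stood below the eligible median by 0.27 under CPM and by 0.29 under TMM.

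The study's thresholds for a differentially expressed gene, a fold above 2 and an adjusted p under 0.05, were applied with edgeR's quasi-likelihood test on TMM-scaled counts. In the 80 libraries 5 members were called between CCs and MGCs, all higher in CCs, where 50.4% of the 15131 tested genes were called and 22.7% were called higher. Between oocytes and MGCs 11 members were called, all lower in oocytes, against 74.6% of all tested genes and 41.7% called lower. Between oocytes and CCs 38 members were called, again all lower in oocytes, against 71.3% and 38.6%. These counts describe the choice, since the same libraries made it. The largest rises were in ENSBTAG00000016599 and ENSBTAG00000008110.

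ENSBTAG00000016599 had a median CPM of 89.9 in MGCs (60.6 to 165), 163 in CCs (95.9 to 238) and 111 in oocytes (70.6 to 167). The groups overlapped, and the fitted log2 difference for CCs over MGCs was 1.16 ± 0.13 (SE). ENSBTAG00000008110 had a median of 48.2 in MGCs (30.3 to 70.4), 86.9 in CCs (47.2 to 138) and 70.4 in oocytes (30.6 to 126), with a fitted difference of 1.05 ± 0.14 (SE). With DESeq2's size factors in place of TMM these differences were 0.91 and 0.79, below the fold threshold, and no member was called between CCs and MGCs.

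Between consecutive stages, edgeR called no member in any of the 6 comparisons within a cell type over the 80 libraries. Of all tested genes, 63 were called in MGCs (0.423%) and 11 in oocytes (0.0737%) between small and medium follicles, and none in the other 4 comparisons (0%). DESeq2 also called no member at these thresholds. At an unadjusted p under 0.05 in edgeR, 43 members (21.5%) passed in MGCs and 42 (21.0%) in oocytes between small and medium follicles, where 13.9% and 15.7% of all tested genes did. In the other 4 comparisons 6 to 18 members passed. The members' share was below that of all tested genes in both CC comparisons, at 5.00% beside 12.0% (medium over small) and 3.00% beside 7.71% (large over medium). It was also below in MGCs of large over medium follicles, at 8.00% beside 11.1%. In oocytes of large over medium follicles it was above, at 9.00% beside 5.25%. By adjusted p alone, 1 member passed in MGCs and 6 in oocytes, all between small and medium follicles, where 0.483% and 0.562% of all tested genes did. By DESeq2's adjusted p the numbers were 5 members (2.50%) and 26 members (13.0%), against 2.66% and 4.86% of all tested genes. In edgeR the log2 changes of those that passed stayed between -0.70 and 0.86. The members' median absolute log2 change ran from 0.14 in oocytes and 0.15 in MGCs, both from medium to large follicles, to 0.22 in MGCs from small to medium follicles, and over all tested genes from 0.25 to 0.41.

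The 3 follicles outside the choice gave an independent reading. In all 3 MGC libraries 99.0% of the members lay within 2-fold of their own mean over the 80 libraries. Of the eligible genes, 65.2% to 67.6% did. In CCs the members' share was 100% in CS70702, 97.5% in CM71804 and 81.0% in CM71001, against 85.5%, 73.5% and 66.7% of the eligible genes. In oocytes it was 94.5% in OS70702, 43.5% in OM71804 and 38.0% in OM71001, against 56.2%, 26.8% and 29.99%. The members were thus closer to their usual level than the eligible genes in each of the 9 libraries, and far from it in both oocytes of the medium follicles.

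The oocyte libraries OM71804 and OM71001, the 2 oocytes that had failed the study's quality control, stood apart from the others. They had counts in 6770 and 9524 genes, where the 27 oocytes of the other follicles had counts in 10588 to 16641. Of the members, 37 in OM71804 (18.5%) and 12 in OM71001 (6.00%) had no count, beside 31.2% and 12.0% of the eligible genes. The members' root mean square deviation from their usual log2 level was 2.84 and 2.32 there, and between 0.33 and 0.75 in the other 7 libraries. The values of these libraries therefore describe oocyte libraries of failed quality, and the state of the oocyte and the quality of its library cannot be told apart.

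**Figure D5:**
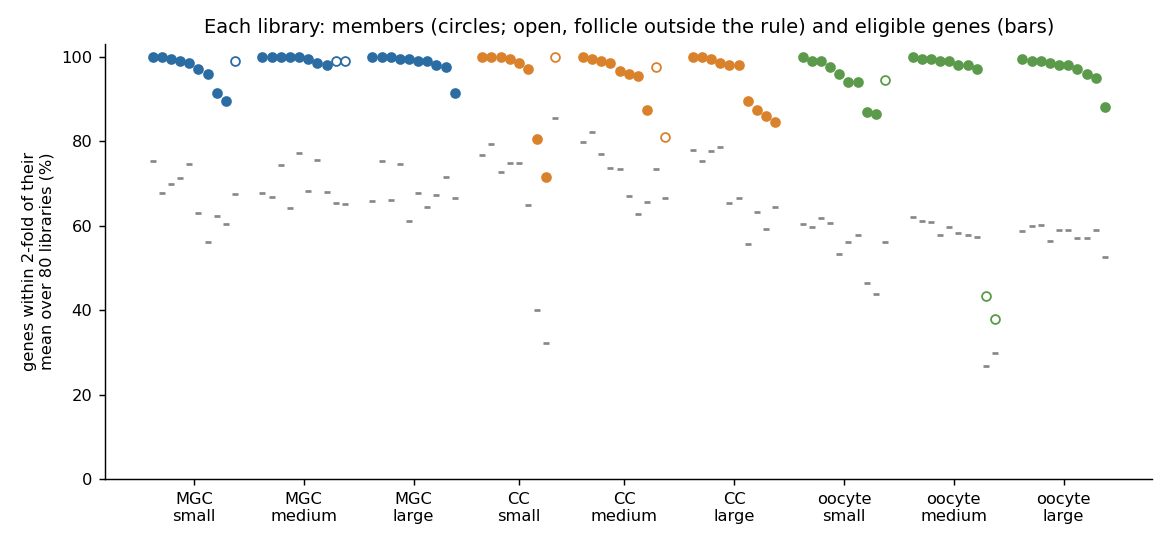
For each library, the percentage of members (circles; filled, 80 libraries that chose them; open, the 3 follicles outside the choice) and of eligible genes (grey bars) within 2-fold of their mean log2(CPM + 1) over the 80 libraries, by cell type and stage. The open circles of the medium oocytes lie at 43.5% and 38.0%, the lowest in the plot, and the lowest filled circle is a small-follicle CC library at 71.5%.

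Of the 3 members with the lowest SD, 2 were far below their level in one of these oocytes. ENSBTAG00000016007 had a CPM of 142, 143 and 116 in the MGCs GS70702, GM71804 and GM71001, and of 175, 108 and 206 in the CCs of the same follicles. In their oocytes it had 154, 76.6 and 0.112, the last from a count of 2. ENSBTAG00000009278 had 84.6, 56.3 and 61.9 CPM in the MGCs and 61.1, 45.4 and 56.3 in the CCs, with 60.3 in OS70702, no count in OM71804 and 102 in OM71001. One gene fell out in one oocyte and the other gene in the other. A count of 0 among the 20047208 counts of OM71804 allows up to 0.1496 CPM by counting error alone.

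ENSBTAG00000005681 stayed nearer its level. It had 106, 118 and 106 CPM in the MGCs, 106, 86.8 and 127 in the CCs, and 84.0, 137 and 26.9 in OS70702, OM71804 and OM71001. Only OM71001 fell below the 51.7 to 178 of the 80 libraries.

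Over the 9 libraries the SD of log2(CPM + 1) had a median of 0.82 in the members and 1.65 in the eligible genes. Of the members, 149 lay below the eligible median, and 49 (24.5%) were among the 200 eligible genes with the lowest SD there, where members were 3.48% of the eligible genes. Without OM71804 and OM71001 the medians were 0.44 and 0.84, and 198 members lay below the eligible median. The number among the 200 lowest was then 46 (23.0%).

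Across cell types in these 9 libraries, edgeR called no member between CCs and MGCs, nor any of the 15129 tested genes (0%). No member passed at an unadjusted p under 0.05 either, while 1206 of all genes did, and DESeq2 called 519 genes (3.43%) and no member. Between oocytes and MGCs 1 member was called, lower in oocytes, where 22.0% of the tested genes were called and 15.8% were called lower. Between oocytes and CCs 4 members were called, all lower in oocytes, where 18.4% of the tested genes were called and 14.3% were called lower. With the follicle as a block no member was called in either comparison, while 2035 and 1368 genes still were.

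The members' differences were smaller than those of the other genes in each comparison. Their median absolute log2 difference was 0.40 between CCs and MGCs, 0.65 between oocytes and MGCs and 0.92 between oocytes and CCs, against 1.03, 2.50 and 2.29 over all tested genes. It was under 1 in 188, 131 and 105 of the 200 members (94.0%, 65.5% and 52.5%), and in 49.0%, 23.1% and 24.7% of all genes. The test was coarse. The members' standard errors had medians of 0.77 to 0.78, and the smallest change called in any gene was 1.505, and on simulated counts built from these 9 libraries the same test missed changes of several fold. The low counts of members called therefore do not show that the members were even across cell types.

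Without OM71804 and OM71001 the test was sharper over all genes, and 1264 genes (8.35%) were called between CCs and MGCs, 5795 (38.3%) between oocytes and MGCs and 4653 (30.8%) between oocytes and CCs. Of the members, 0, 0 and 1 were called. With the 6 MGC and CC libraries alone, 1561 genes (10.3%) and no member were called between CCs and MGCs. The oocyte side of the first of these fits rests on OS70702 alone, which was assumed to vary like the other cell types.

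The members that fell furthest among those called were ENSBTAG00000005517 and ENSBTAG00000005338. ENSBTAG00000005338 had a CPM of 229, 489 and 348 in GS70702, GM71804 and GM71001, of 308, 275 and 321 in the CCs of these follicles and of 170, 147 and 76.1 in their oocytes. The 3 oocytes lay below all MGC and CC libraries of these follicles, and the fitted log2 difference was -2.11 ± 0.58 (SE) from MGCs (adjusted p 0.0298, edgeR) and -2.05 ± 0.58 from CCs (adjusted p 0.0371, edgeR). Under the follicle block the adjusted p from edgeR was 0.0787 and 0.0929. In the 80 libraries its oocyte median of 249 (153 to 459) also lay below the MGC median of 339 (211 to 524) and close to the CC median of 252 (172 to 495).

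ENSBTAG00000005517 had 104, 155 and 85.9 CPM in the same MGC libraries, 204, 177 and 131 in the CCs and 99.6, 64.4 and 20.04 in the oocytes. All 3 oocytes lay below the CCs but not below all MGCs, and the log2 difference was -2.30 ± 0.69 (SE) from CCs (adjusted p 0.0472, edgeR) and -1.57 ± 0.68 from MGCs (adjusted p 0.129, edgeR). Under the block the adjusted p from edgeR for oocytes against CCs was 0.0821. In each of these calls, leaving out the follicle of OM71804, that of OM71001, or both oocytes ended the call, and leaving out that of OS70702 ended both calls against CCs. Without both OM71804 and OM71001 the log2 difference was -1.30 for ENSBTAG00000005517 and -1.39 for ENSBTAG00000005338 from CCs, and -1.53 for ENSBTAG00000005338 from MGCs.

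A few of the 80 libraries also stood apart in their members. The CC library CS50501 had 71.5% of the members within 2-fold of their mean and a root mean square deviation of 0.98, against a median of 0.41 over the 80 libraries, and the next lowest share was 80.5% in CS71701. Only 32.2% of the eligible genes were within 2-fold in CS50501. With that library left out of the choice, 170 of the 200 members were chosen again. In CS70701, which was left out, 183 members (91.5%) had no count, beside 94.0% of the eligible genes.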

How the data were processed

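RNA-seq counts per gene were used as the authors deposited them, without normalization, for 90 libraries and 27270 Ensembl genes, of which 931 had no count. According to the study's methods the reads were aligned with STAR, whereas the submitters' processing notes name HISAT2 2.2.1 with featureCounts and ARS-UCD1.2, and which aligner made the counts was not settled. Among counts of 1 to 20, between 54.9% and 76.7% were even in each library, and the cause was not tested.

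The members and the alternatives were chosen with earlier results of these data known. Tests covered genes above a CPM of 1 in 15 or more of the 80 libraries within one cell type, fitted in edgeR 4.0.16 (R 4.3.3) with TMM, glmQLFit and glmQLFTest, and p-values were adjusted by Benjamini-Hochberg over all tested genes. DESeq2 1.42.0 was the other test. The fits were tested on simulated counts, where those over 9 libraries had little power. SDs, shares and plots were made in Python 3.11.15 with numpy 2.4.6, pandas 2.3.3 and matplotlib 3.10.9. Cell types were compared over 9 libraries in one fit without a block, and over 80 libraries as means over stages. Stages were compared in one fit for each cell type. The MGCs, CCs and oocyte of one number came from one follicle, which pairs them. In the 3 follicles, same-follicle deviations from the cell type means correlated at 0.09 to 0.34 between MGCs and CCs and -0.06 to 0.04 with oocytes. In the 80 libraries, deviations from the means of stage and cell type correlated at a median of 0.06 between MGCs and CCs (-0.14 to 0.36). The medians were 0.001 between MGCs and oocytes (-0.12 to 0.11) and 0.09 between CCs and oocytes (-0.08 to 0.31).

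Gene lists, cell type markers and promoters were planned but not analysed here, since 0 of the 27270 identifiers could be matched to a name. The rule named the 10 members of lowest SD, the genes at the limit and the largest changes. It was cut to the 3 of lowest SD, 1 gene on each side of the limit, and 2 rising and 2 falling genes. The genes even within every cell type were chosen after their values were seen. Intervals and limits for counts of 0 cover counting error only.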

Additional observations from a re-analysis of the deposited data

Results flagged for a closer look

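In each stage and cell type of the 80 libraries, the highest and lowest library were compared with the rest by Dixon's ratio, for the members' share of counts, the members' root mean square deviation and the CPM of the 7 members named with values. Of 81 groups examined, 10 held a library that stood apart, and chance gives about 1 in 20.

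The members took up 1.77% of the counts in GS50506, where the other 8 small-follicle MGC libraries had 2.13% to 2.47%. They took up 1.75% in CS50501, where the other small-follicle CC libraries had 2.46% to 2.91%.

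Of the steadiest members, ENSBTAG00000016007 stood low at 112 CPM in OM71805 (others 138 to 162). ENSBTAG00000009278 stood high at 104 CPM in GM62201 (others 60.2 to 78.9) and at 109 CPM in OL71801, a large-follicle oocyte (others 50.1 to 78.5).

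ENSBTAG00000005517 stood high at 193 CPM in OS50502 (others 59.6 to 117). ENSBTAG00000016599 stood high in both GM62201, at 165 CPM (others 70.8 to 101), and OM62201, the oocyte of the same follicle, at 159 CPM (others 100.3 to 128). ENSBTAG00000008110 stood low at 36.3 CPM in GM71805 (others 48.2 to 53.7) and high at 126 CPM in OS70501 (others 30.6 to 78.0).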

How the results depend on the processing

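Of the 200 members, 88 were chosen again with TMM scaling, 89 with DESeq2's size factors, 79 over all 90 libraries, 61 by the pooled SD within cell types, 98 by the SD of the 9 group means, 65 with MGCs and CCs only, 97 with MGCs and oocytes only and 91 with CCs and oocytes only. Under another pseudocount, a mean CPM of 5 or 20, the coefficient of variation or the 89 libraries without CS70701, between 134 and 196 were. Leaving out each follicle in turn gave 172 to 196. In the 9 libraries the members' median SD was 0.44 without OM71804 and OM71001 (chosen after seeing the data, as was the fit of MGC and CC libraries alone) and 0.61 to 0.98 without each follicle in turn. Members called between oocytes and MGCs in these follicles went from 1 to 16 with DESeq2, 3 with its size factors in edgeR, 0 without the filter, 0 with the replicate block and 0 without both oocytes, and to between 0 and 11 without each follicle, the 11 without the follicle of OS70702. Between oocytes and CCs they went from 4 to 20, 8, 0, 0 and 1, and to between 0 and 11. In these follicles DESeq2 called 8.00% of the members and 37.6% of all tested genes between oocytes and MGCs. Between oocytes and CCs it called 10.0% and 33.4%. With edgeR, 22.0% and 18.4% of all tested genes were called. In the 80 libraries, calls between CCs and MGCs went from 5 to 0 with DESeq2 or its size factors and 1 without the filter. Calls between oocytes and MGCs went from 11 to 31 with DESeq2 or its size factors. The shares of all genes called under the alternatives in the 80 libraries are not given here. The block moved the counts in the 80 libraries to 4, 10 and 34, changing none by over 1.5 times. No stage comparison called a member under any alternative run. The cause of these changes was not tested. Over all genes, DESeq2 made more calls than edgeR in 5 of the 6 stage comparisons (256 against 63 for MGCs between small and medium follicles). OM71804 and OM71001, with counts in 6770 and 9524 genes, limit what the 9 libraries can show. Members past an adjusted p alone between small and medium follicles went from 6 to 26 in oocytes and from 1 to 5 in MGCs with DESeq2.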

Other observations

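The median correlation between pairs of members over the 80 libraries was 0.09, beside 0.09 between pairs of eligible genes, and is given as a description across libraries that share depth and preparation. After subtracting the group means it was 0.15 within MGCs, 0.16 within CCs and 0.02 within oocytes, beside 0.06, 0.20 and 0.02 in the eligible genes.

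Of the 200 members, 161 were chosen in every one of the choices that left out 1 follicle, 75 were chosen under each of CPM, TMM and DESeq2's scaling, and 23 were chosen with each pair of cell types. The 3 steadiest members ranked 81 (ENSBTAG00000016007), 59 (ENSBTAG00000005681) and 2 (ENSBTAG00000009278) under TMM scaling. Over the 89 libraries without CS70701 they ranked 825, 3 and 466. Among the added libraries, ENSBTAG00000016007 was far below its level in OM71001 (0.112 CPM) and ENSBTAG00000009278 in OM71804 (no count). Ranks without only these libraries were not computed.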
